A study of Mus musculus with 2 samples.

Results

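The genes described here are 10 imprinted genes read in mouse adrenal gland: Meg3, Rian, Dlk1, Ndn, Cdkn1c, Grb10, Peg3, Igf2, Plagl1 and Mest. They were taken by gene name, and all models that the deposited tables assign to these gene names were used. All 10 had at least 1 read, among 16745 annotated genes with a read. The tissue came from wild-type C57BL/6J mice of The Jackson Laboratory and was read as long cDNA, where 1 read can span a whole transcript. The series holds 1 group of 2 libraries, replicate 1 and replicate 2, which the labels number as biological replicates but tie to 1 donor entry. One label field says male while the field for sex says not collected, and age and developmental stage are given as unknown. No treatment or second genotype was included, so every test below compares the 2 libraries on their reads, not conditions, and the spread between them may be technical.

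Imprinted genes are transcribed mainly from the copy inherited from one parent, set by DNA methylation laid down in the egg or the sperm. Meg3, Rian and Cdkn1c are expressed from the maternal copy, as is Grb10 in most tissues outside neurons, while Dlk1, Ndn, Peg3, Igf2, Plagl1 and Mest are expressed from the paternal copy. Many of them control fetal growth and are turned down after birth, and several are known in the adrenal: changes in CDKN1C cause overgrowth or, in another syndrome, adrenal hypoplasia in people, and Dlk1 is known from chromaffin cells and cortical progenitors. C57BL/6J is inbred, so the reads carry no parental differences and the copy of origin was not measured here.

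The libraries held 848782 and 545229 reads, so that 1 read was worth 1.18 and 1.83 CPM, a gene's reads scaled to 1000000 reads of its library. Weighted by reads, the median length of the known models was 1648 bases in replicate 1 and 2740 bases in replicate 2. These are lengths of the models, not of the reads themselves. Of 9879 genes with at least 10 reads summed, 64.4% differed between the libraries by Fisher's exact test at a Benjamini-Hochberg adjusted p below 0.05, with 36.6% higher in replicate 2 and 27.9% lower. Scaling by TMM moved the median log2 ratio of these genes from 0.38 to -0.08. Markers of the labelled tissue were read. All 8 cortex markers (58063 and 92251 CPM in sum, Star highest) and all 8 medulla markers (13230 and 26004 CPM, Chgb highest) were read, the 6 kidney markers had 0 reads, and 8 genes of fetal growth and cycling cells had 14 and 4 reads (Ccnb1 highest). Stroma (Dcn highest) summed to 561 and 413 CPM, endothelium (Plvap) to 397 and 1354 CPM, macrophage and immune genes (Lyz2) to 933 and 347 CPM, and adipocyte genes (Plin1) to 226 and 49.5 CPM. A sum is weighted to its most read genes, and within most lists the genes went both ways. Genes called higher and lower in replicate 2 were 6 and 2 for cortex, 4 and 3 for medulla and 4 and 1 (Dcn) for stroma. They were 6 and 1 for endothelium, 3 and 3 for macrophage and immune genes and 0 and 4 for adipocyte genes. The part of these differences in the results below was not tested. In bulk tissue, fewer cells of a type and less RNA per cell cannot be told apart.

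Together the 10 genes held 1111 reads in replicate 1 and 564 in replicate 2, or 1309 and 1034 CPM (1172 ± 194 CPM, SD, n = 2). 4 of them, Meg3, Ndn, Cdkn1c and Mest, stood at 55.0 CPM or more in both libraries. Grb10 and Dlk1 lay between 30.6 and 64.2 CPM, Peg3 and Rian at or below 22.0 CPM, and Igf2 and Plagl1 had 1 read each. Of the 7 genes with enough reads for the test, 3 were higher in replicate 2, 3 were lower and 1 was not called, against the 64.4% called over all genes. Their median log2 ratio was 0.02, against 0.38 over all genes tested.

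**Figure D1:**
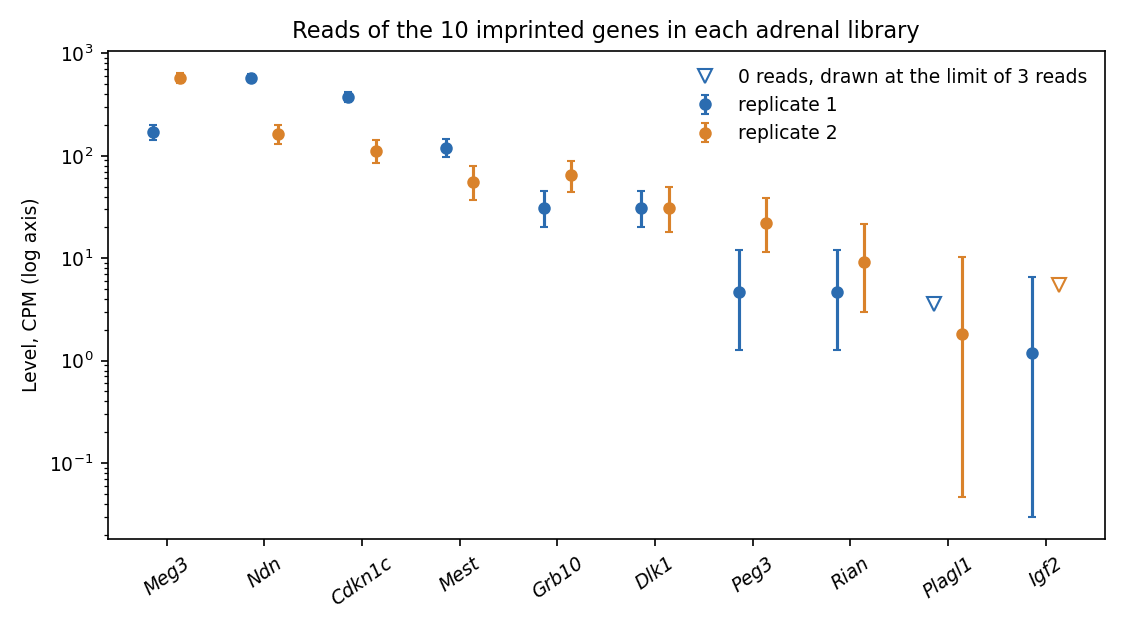
Level of each gene in CPM (log axis) in replicate 1 (blue) and replicate 2 (orange), with exact Poisson 95% intervals that cover counting error only. Open triangles mark 0 reads, drawn at the limit of 3 reads. Meg3 was 3.39-fold higher in replicate 2, whereas Ndn and Cdkn1c were 3.49-fold and 3.38-fold lower.

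The sequences that the reads bear on most directly come first. 9 of the 10 genes have at least 1 promoter window in RefSeq (build GRCm38.p6, 250 bases before to 50 after the start), 16 windows in all. Mest, Grb10 and Meg3 each have more than 1 annotated start, and among their RefSeq windows spliced models began only in those printed here (a second Mest window, shifted by 3 bases, overlaps the first). Capitals mark TGCCGC or its reverse complement GCGGCA, searched on both strands, the letters that the imprint-maintaining zinc finger protein ZFP57 is known to bind when methylated.
Mest, chr6:30737800-30738099, plus strand: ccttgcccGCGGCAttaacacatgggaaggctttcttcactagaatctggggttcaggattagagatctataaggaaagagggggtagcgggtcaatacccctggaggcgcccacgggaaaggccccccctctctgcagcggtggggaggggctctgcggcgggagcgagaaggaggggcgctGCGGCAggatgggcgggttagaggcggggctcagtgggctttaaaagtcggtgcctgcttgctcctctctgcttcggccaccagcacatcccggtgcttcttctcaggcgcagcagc
Grb10, chr11:12037371-12037670, minus strand: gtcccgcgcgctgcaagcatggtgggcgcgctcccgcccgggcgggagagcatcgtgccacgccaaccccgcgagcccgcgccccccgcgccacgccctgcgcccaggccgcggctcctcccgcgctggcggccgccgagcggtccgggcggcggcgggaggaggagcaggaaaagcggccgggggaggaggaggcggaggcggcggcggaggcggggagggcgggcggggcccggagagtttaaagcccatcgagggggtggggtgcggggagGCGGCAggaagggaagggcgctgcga
Meg3, chr12:109540746-109541045, plus strand: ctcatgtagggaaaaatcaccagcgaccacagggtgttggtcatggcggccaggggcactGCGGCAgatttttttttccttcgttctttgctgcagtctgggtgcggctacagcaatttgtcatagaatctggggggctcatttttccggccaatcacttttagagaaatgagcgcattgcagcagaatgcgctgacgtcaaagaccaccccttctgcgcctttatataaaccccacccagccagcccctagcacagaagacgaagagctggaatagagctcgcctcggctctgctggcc
The letters occurred 2 times in the Mest window and 1 time each in the Grb10 and Meg3 windows. They occurred in 11.6% of all 32851 RefSeq windows of this length and in 6 of the 16 member windows, of which 2 are overlapping Mest windows. The Grb10 window held 45 CG pairs, Mest 17 and Meg3 13, against a median of 7 over all windows and a 90th percentile of 31. A match of these letters is a description of the window, not a measured binding site.

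Starts were read from spliced models, whose ends are those of the deposited models and not of single reads. All 100 spliced Mest reads of replicate 1 and 29 of 30 of replicate 2 began within 100 bases of position 30738050, in the printed window, and 0 of 100 and 0 of 30 began at the upstream first exons (upper 95% limits 3.62% and 11.6%, exact Clopper-Pearson). For Grb10, 18 of 19 and 27 of 28 spliced reads began at the most upstream first exon (12037401), and 0 of 19 and 0 of 28 at the second RefSeq start (12027971). The upper limits for that second start were 17.6% and 12.3%, so rarer use was not detectable at this depth. Both libraries thus showed the same main start for Mest and for Grb10. Spliced Meg3 models began at the annotated first exon for 295 of 307 reads in replicate 2, or 96.1% (95% interval 93.3% to 98.0%), but for 23 of 77 in replicate 1, or 29.9% (20.0% to 41.4%). The other 54 Meg3 reads of replicate 1 began further downstream.

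Meg3 (ENSMUSG00000021268.17, chr12:109541001-109571726, plus strand) is a maternally expressed long noncoding RNA with growth-restraining activity. Replicate 1 held 144 Meg3 reads (170 CPM, exact Poisson 95% interval 143 to 200) and replicate 2 held 314 (576 CPM, 514 to 643). The log2 ratio was 1.76 (adjusted p = 8.69e-36, Fisher's exact test, Benjamini-Hochberg over all 9879 genes). Among the 500 genes nearest in length it stood at percentile 85.5 in replicate 1 and 99.5 in replicate 2. Genes of its model length (1498 bases) had a running median log2 ratio of -1.73, so Meg3 ran opposite to genes of that length. Its log2 ratio was 3.49 after that trend was removed. The length is the median over known-model reads, most of them in the short Meg3-205. Meg3-207 is 1896 bases long, and at 1901 bases the running median was -0.07, so the size of the trend-removed ratio depends on the model taken.

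Few Meg3 reads of replicate 1 matched a full annotated splice chain. Reads in known models were 8 of 144 (5.56%) in replicate 1 and 93 of 314 (29.6%) in replicate 2, a difference past the threshold (adjusted p = 1.32e-08, Fisher's exact test, Benjamini-Hochberg over 3092 genes). Unspliced or otherwise unmatched models inside the gene, called genomic in the deposited tables, took 67 reads in replicate 1 and 8 in replicate 2. Unannotated antisense models over the locus moved alongside them, with 64 and 8 reads. Meg3 stayed higher in replicate 2 with genomic models left out (log2 ratio 2.62) and with known models only (4.04).

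Most spliced Meg3 models from the first exon ended in 1 of 2 places. The early group ended in or just after a lengthened exon 3, 4318 bases from the start, and the other ran on to the distal last exon, which begins 30390 bases from the start. In the genome a run of A bases begins directly after the annotated early end (109545319). Whether cDNA was primed at that run, and not at the end of a transcript, was not tested. The early group held 149 of the 295 reads in replicate 2 that began at the first exon (50.5%, 44.7% to 56.3%) and 12 of 23 in replicate 1 (52.2%, 30.6% to 73.2%). The distal last exon was reached by 123 (41.7%) and 10 (43.5%) of them, and the other 23 and 1 ended in between. The shares of the early and the distal group were alike in both libraries within counting error, although replicate 1 had few such reads. Over all spliced models that joined 1 of the 2 annotated last exons, wherever they began, the proximal one took 25 of 155 reads in replicate 2 (16.1%, 10.7% to 22.9%) and 3 of 62 in replicate 1 (4.84%, 1.01% to 13.5%). The most read known transcripts were Meg3-205, an early-ending form with 7 and 64 reads, and Meg3-207, a form of 10 exons with 1 and 28 reads. An unannotated early-ending form with the longer exon 2 held 5 and 81 reads. Full-chain reads here are those in known models or in unannotated models classed as new chains. Some such Meg3 models start downstream of the first exon, and the form with 5 and 81 reads, classed as incomplete, is not among them. Meg3-205 took 28.0% of 25 full-chain reads in replicate 1 and 30.3% of those in replicate 2, which did not differ past the threshold (adjusted p = 1, Fisher's exact test, Benjamini-Hochberg).

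**Figure D2:**
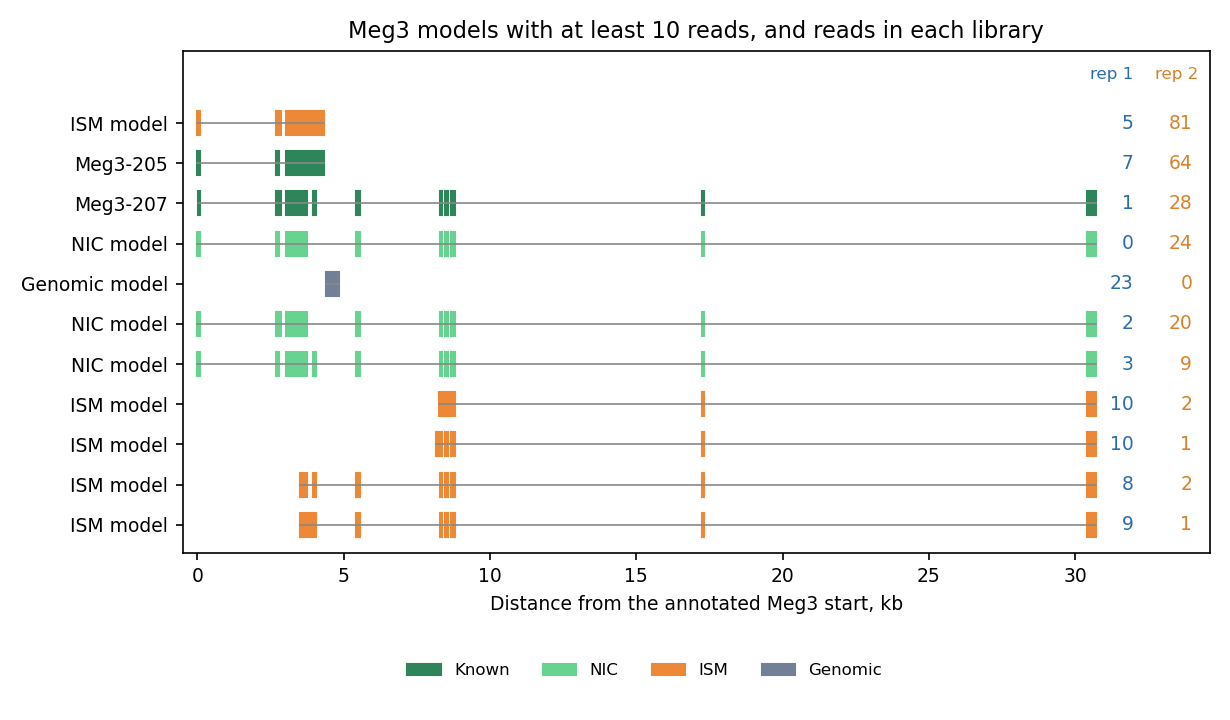
Meg3 models with at least 10 reads summed, drawn by distance in kb from the annotated start, with boxes for exons, lines for introns and colours for model class. The numbers at the right are reads in replicate 1 and replicate 2: the early-ending forms at the top hold 81 and 64 reads in replicate 2, the 4 incomplete forms that start downstream hold 8 to 10 reads in replicate 1, and the genomic model holds 23 reads in replicate 1 and 0 in replicate 2.

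Meg3 exons were joined in several ways, and the alternative stretches are printed from the GENCODE M21 transcript Meg3-207 with the optional bases of exon 2 in capitals. Exon 2 ended at either of 2 donors 44 bases apart, and exons 4 and 5 were each kept or left out.
Meg3 exon 2 end, chr12:109543786-109543849: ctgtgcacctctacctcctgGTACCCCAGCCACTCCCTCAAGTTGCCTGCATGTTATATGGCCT
Meg3 exon 4, chr12:109544948-109545041: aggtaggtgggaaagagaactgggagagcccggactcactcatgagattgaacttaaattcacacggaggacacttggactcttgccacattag
Meg3 exon 5, chr12:109546430-109546542: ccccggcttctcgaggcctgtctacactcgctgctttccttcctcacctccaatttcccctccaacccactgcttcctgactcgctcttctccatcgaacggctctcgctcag
The outer donor of exon 2 was used by 12 of 24 reads in replicate 1 and 167 of 294 in replicate 2 (56.8%, 50.9% to 62.5%). Its share was 56.8% of 148 early-ending reads and 58.5% of 123 reads to the distal exon in replicate 2, so the choice of donor and the end of the model did not differ beyond counting error. After exon 3, replicate 2 reads ran on past the donor in 148 of 293 cases and joined exon 4 in 71, exon 5 in 58 and exon 6 in 16. Where exon 4 was read, exon 5 followed in 22 of 23 reads of replicate 1 and in 49 of 72 of replicate 2 (68.1%, 56.0% to 78.6%).

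RefSeq places microRNAs inside Mest, Meg3, Igf2 and Rian. Igf2 and Rian had too few reads to follow, and the mature microRNAs of Mest and Meg3 are shown with the seed (bases 2 to 8) in capitals. Long cDNA reads do not measure mature microRNAs, so only the path of the host reads is given.
mmu-miR-335-5p, in a Mest intron: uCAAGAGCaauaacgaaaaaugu
mmu-miR-335-3p, in a Mest intron: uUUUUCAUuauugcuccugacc
mmu-miR-770-5p, in the last Meg3 intron: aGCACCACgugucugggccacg
mmu-miR-770-3p, in the last Meg3 intron: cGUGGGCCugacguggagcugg
mmu-miR-1906, in Meg3 exon 3: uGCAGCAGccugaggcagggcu
All Mest reads across the Mir335 hairpin (chr6:30741299-30741396) spliced it out, 100 in replicate 1 and 29 in replicate 2, and 0 kept it in an exon. The Mir770 hairpin (chr12:109563692-109563785) was spliced out by 61 and 132 Meg3 reads and lay in an exon in 0. The letters of mmu-miR-1906 lay inside an exon of 48 and 302 Meg3 reads. These 5 mature sequences have different seeds.

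Rian (ENSMUSG00000097451.10, chr12:109603940-109661716) lies downstream of Meg3 and hosts small nucleolar RNAs. It had 4 reads in replicate 1 (4.71 CPM) and 5 in replicate 2 (9.17 CPM), too few for the test. Its most read model, the single-exon Rian-209, had 2 reads in each library. In the same imprinted interval, Mirg had 1 and 0 reads, Rtl1 3 and 0 and Dio3 0 and 1, so among these genes of the interval nearly all reads came from Meg3 and Dlk1.

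Dlk1 (ENSMUSG00000040856.17, chr12:109452823-109463336), the paternally expressed partner of Meg3, encodes a transmembrane protein with EGF-like repeats that can be shed from the cell surface. It had 26 reads in replicate 1 (30.6 CPM) and 17 in replicate 2 (31.2 CPM), the closest pair of levels among the tested members, at percentiles 56.3 and 70.0 of the 500 genes nearest in length. The log2 ratio was 0.02 (adjusted p = 1, Fisher's exact test, Benjamini-Hochberg), and its sign turned to -0.43 with TMM factors and -0.51 with DESeq2 size factors. It was 0.75 with the length trend removed, 1.06 with genomic models left out (adjusted p = 0.0825) and 1.20 with known models only (adjusted p = 0.0675, both by Fisher's exact test), none of them called. Genomic models held 16 of its 26 reads in replicate 1 and 3 of 17 in replicate 2. Unannotated antisense models at the locus had 12 and 0 reads. Dlk1-205, which keeps the last coding exon whole, had 5 and 12 reads. Dlk1-208, which removes 225 bases of it, had 4 and 1, and Dlk1-203, which removes 219 bases, had 0 and 1. The whole exon is known to carry the cleavage site for shedding. The shares of the whole form, 5 of 9 and 12 of 14, had overlapping 95% intervals (21.2% to 86.3% and 57.2% to 98.2%).

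Cdkn1c (ENSMUSG00000037664.13, chr7:143458339-143461050, minus strand) encodes p57Kip2, a cyclin-dependent kinase inhibitor that halts the cell cycle. It had 321 reads in replicate 1 (378 CPM, 338 to 422) and 61 in replicate 2 (112 CPM, 85.6 to 144). The intervals did not overlap. The log2 ratio was -1.75 (adjusted p = 9.42e-22, Fisher's exact test, Benjamini-Hochberg), against a running median of -0.07 for genes of its length, 1901 bases. Among the 500 genes nearest in length it stood at percentile 95.1 in replicate 1 and 84.9 in replicate 2.

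Most Cdkn1c reads were not in annotated splice chains, although few were in models classed as incomplete or genomic. Known models held 116 of 321 reads (36.1%, 30.9% to 41.7%) and 25 of 61 (41.0%, 28.6% to 54.3%). Known models and unannotated full chains together held 96.3% and 95.1% of the reads. Most reads in unannotated chains differed from the annotated ones at the ends of exon 2, where 3 acceptors and 2 donors held nearly all reads. Of the 7 unannotated junctions, the 6 other than the third acceptor held 21 junction reads in replicate 1 and 2 in replicate 2. In the sequences below, from Cdkn1c-202 and Cdkn1c-205 of GENCODE M21, capitals mark the start codons and the tandem CAGCAG in the first line and the bases between the donors in the second.
Cdkn1c exon 2 start, chr7:143460648-143460707: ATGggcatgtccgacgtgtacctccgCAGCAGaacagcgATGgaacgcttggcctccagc
Cdkn1c exon 2 end, chr7:143459759-143459824: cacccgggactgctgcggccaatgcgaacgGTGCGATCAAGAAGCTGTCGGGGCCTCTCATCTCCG
The first acceptor (143460716) lies upstream of the ATG of Cdkn1c-202 and keeps it. The second (143460678) begins the exon after the first CAG, and the third (143460675), which is in no annotated transcript, begins it after the second CAG, 3 bases on. Both remove that ATG and keep the ATG of Cdkn1c-201. The second acceptor took 182 of 305 reads in replicate 1 (59.7%, 53.9% to 65.2%) and 37 of 56 in replicate 2 (66.1%, 52.2% to 78.2%). The third took 80 (26.2%, 21.4% to 31.5%) and 9 (16.1%, 7.62% to 28.3%). The first took 43 (14.1%) and 10 (17.9%), so most reads of both libraries lacked the upstream ATG.

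The 2 donors of exon 2, which lie 36 bases apart and so keep the reading frame, were used about equally. The outer donor took 144 of 316 reads in replicate 1 (45.6%, 39.98% to 51.2%) and 28 of 56 in replicate 2 (36.3% to 63.7%). Because 1 read spans both ends of the exon, the choices could be read together. In replicate 1 the outer donor took 20 of 43 reads with the first acceptor (46.5%), 85 of 181 with the second (47.0%) and 34 of 80 with the third (42.5%), with overlapping intervals. All 6 combinations were read in both libraries. The most used known transcript, Cdkn1c-201, took 90 of 309 full-chain reads (29.1%) and 20 of 58 (34.5%), which did not differ past the threshold (adjusted p = 0.834, Fisher's exact test, Benjamini-Hochberg over 2186 genes).

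**Figure D3:**
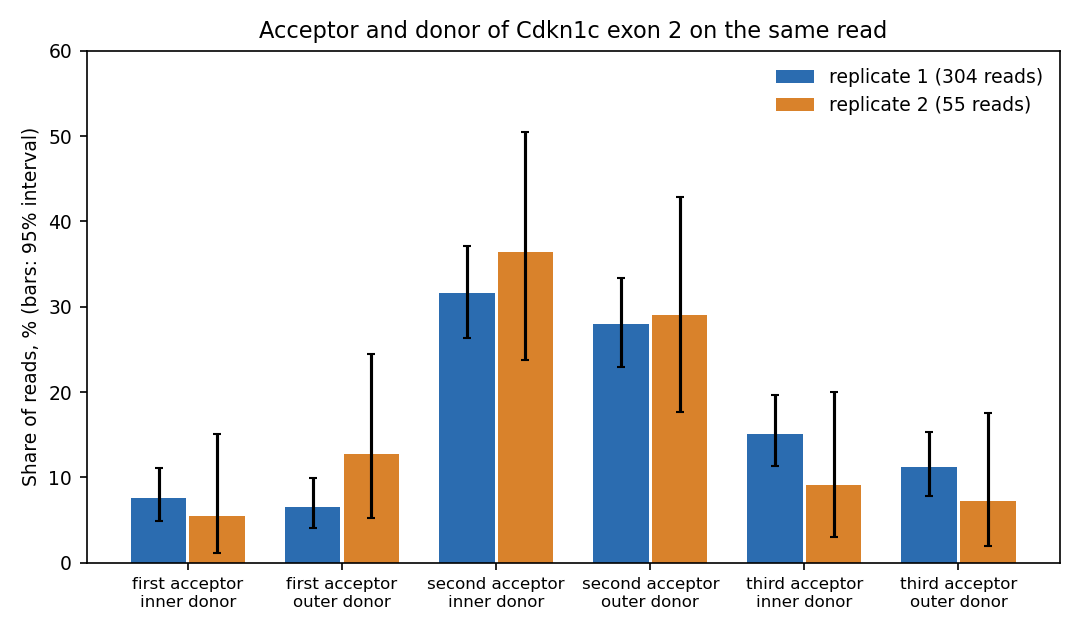
Share of Cdkn1c reads, in %, with each pair of exon 2 acceptor and donor, in replicate 1 (304 reads) and replicate 2 (55 reads), with exact Clopper-Pearson 95% intervals. The second acceptor with the inner donor was the most used pair in both libraries (31.6% and 36.4%), and every pair was read in both.

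Ndn (ENSMUSG00000033585.5, chr7:62346569-62350262) encodes necdin, a neuronal protein of the MAGE family that restrains growth and is lost in Prader-Willi syndrome. It had 483 reads in replicate 1 (569 CPM, 519 to 622) and 89 in replicate 2 (163 CPM, 131 to 201), so the libraries did not overlap. The log2 ratio was -1.80 (adjusted p = 1.69e-33, Fisher's exact test, Benjamini-Hochberg). All reads were in the single-exon known model, at percentiles 99.7 and 88.4 of the 500 genes nearest to its length. That model is 3694 bases long, whereas the RefSeq gene is 1652 bases (chr7:62348277-62349928). Genes of those lengths had running medians of 1.52 and -0.999, so the log2 ratio with the length trend removed was -3.31 at the first length and -0.80 at the second, the latter chosen after the data were seen. It was called lower at both.

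Mest (ENSMUSG00000051855.15, chr6:30723547-30748465) encodes a protein of the hydrolase fold family that acts in the endoplasmic reticulum and is known in fetal and adipose growth. It had 102 reads in replicate 1 (120 CPM, 98.0 to 146) and 30 in replicate 2 (55.0 CPM, 37.1 to 78.5). The log2 ratio was -1.11 (adjusted p = 1.93e-04, Fisher's exact test, Benjamini-Hochberg), while genes of its length, 2561 bases, had a running median of 1.28. It stood at percentiles 90.7 and 61.6 of genes nearest in length. Mest-211 took 91 of 99 full-chain reads (91.9%) and 22 of 29 (75.9%), with an unadjusted p of 0.0423 and an adjusted p of 0.225 by Fisher's exact test. Mest-202, which adds a 104-base exon after exon 1, had 2 and 4 reads. Of 3 members tested for transcript use none was called, against 9.84% of all 2186 genes.

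Grb10 (ENSMUSG00000020176.17, chr11:11930508-12038683, minus strand) encodes an adaptor that restrains insulin and IGF receptor signalling. It had 26 reads in replicate 1 (30.6 CPM, 20.0 to 44.9) and 35 in replicate 2 (64.2 CPM, 44.7 to 89.3). The log2 ratio was 1.04 (adjusted p = 0.00983, Fisher's exact test, Benjamini-Hochberg), but genes of its length, 5061 bases, had a running median of 1.06, and after that trend was removed the ratio was -0.02 and not called. TMM scaling also ended the call (log2 ratio 0.59, adjusted p = 0.174, exact binomial test). The libraries differed in how far the Grb10 reads went. Of the reads that began at the upstream first exon, 15 of 18 in replicate 1 ended by exon 4 and 21 of 27 in replicate 2 reached the last exon (83.3%, 58.6% to 96.4%, and 77.8%, 57.7% to 91.4%). Known models held 2 of 26 reads and 21 of 35 (adjusted p = 3.31e-04, Fisher's exact test, Benjamini-Hochberg). The incomplete 4-exon model had 14 and 1 reads and the full Grb10-201 had 2 and 21.

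Peg3 (ENSMUSG00000002265.16, chr7:6703892-6730431) encodes a zinc finger protein expressed from the paternal copy. It had 4 reads in replicate 1 (4.71 CPM) and 12 in replicate 2 (22.0 CPM), a log2 ratio of 2.01 (adjusted p = 0.00796, Fisher's exact test, Benjamini-Hochberg). The call was lost with TMM factors, with DESeq2 size factors and with the length trend removed. All 4 reads of replicate 1 and 9 of 12 in replicate 2 were genomic. Only replicate 2 held spliced reads, 2 of them in Peg3-201, whose first exon lies at the RefSeq start.

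Igf2 (ENSMUSG00000048583.16, chr7:142650766-142666816), the fetal growth factor, had 1 read in replicate 1, in Igf2-201, and 0 in replicate 2, where 0 reads allow up to 5.50 CPM by the limit of 3 reads. H19, its maternally expressed neighbour, had 0 reads in both libraries. Plagl1 (ENSMUSG00000019817.18, chr10:13060504-13131694), a zinc finger gene that acts in a fetal imprinted network, had 0 reads in replicate 1, which allows up to 3.53 CPM by the same limit, and 1 genomic read in replicate 2. Igf2, H19 and Plagl1 were thus at or under the detection limit.

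**Figure D4:**
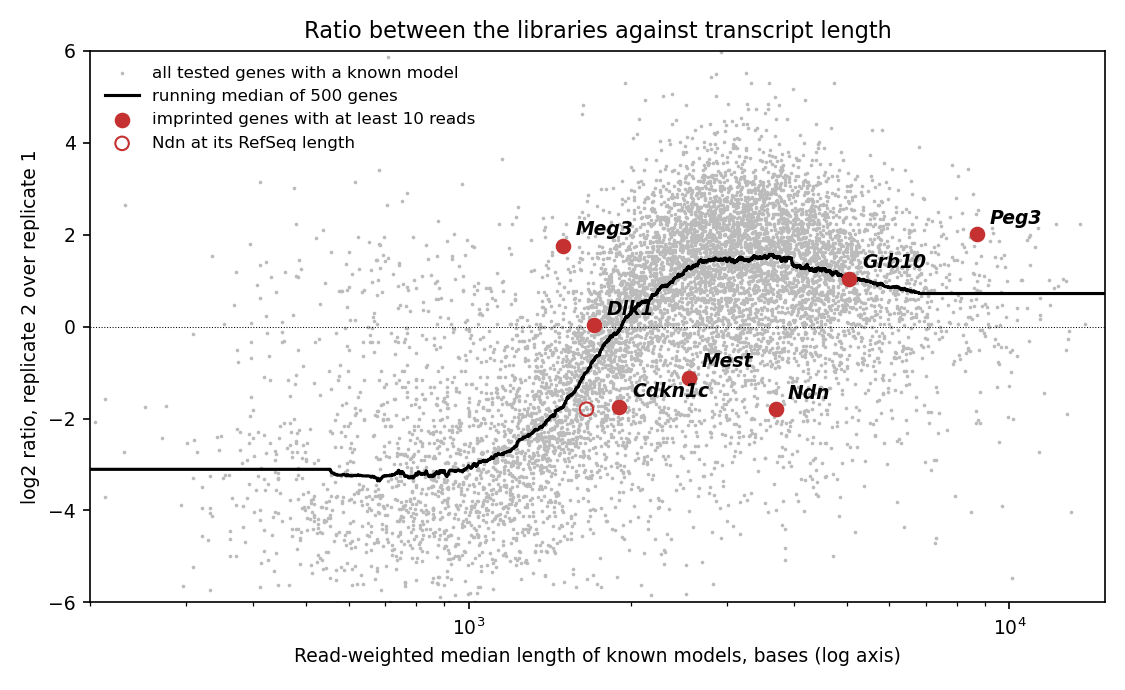
log2 ratio of replicate 2 over replicate 1 (CPM plus 1) against read-weighted median length of known models in bases (log axis), for tested genes with a known model (grey), the 7 tested imprinted genes (red) and the running median of 500 genes (black). Grb10 lies on the median line, Meg3 far above it (1.76 against -1.73) and Ndn far below it (-1.80 against 1.52), while the open circle places Ndn at its RefSeq length.

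After the length trend was removed by an exact binomial test, 4 of the 7 tested members were called, against 41.8% of the 9166 genes with a known model: Meg3 higher and Ndn, Cdkn1c and Mest lower. The 4 were also called, in the same directions, with TMM factors and DESeq2 size factors. For the share of reads in known models, 2 of 5 tested members were called, Meg3 and Grb10, both higher in replicate 2, against 27.1% of 3092 genes. Ndn, among the 5, has 1 annotated transcript of 1 exon, so no splice chain of it could be incomplete. Dlk1 had too few reads for that test, with 9 of 26 reads in known models in replicate 1 and 14 of 17 in replicate 2.

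**Figure D5:**
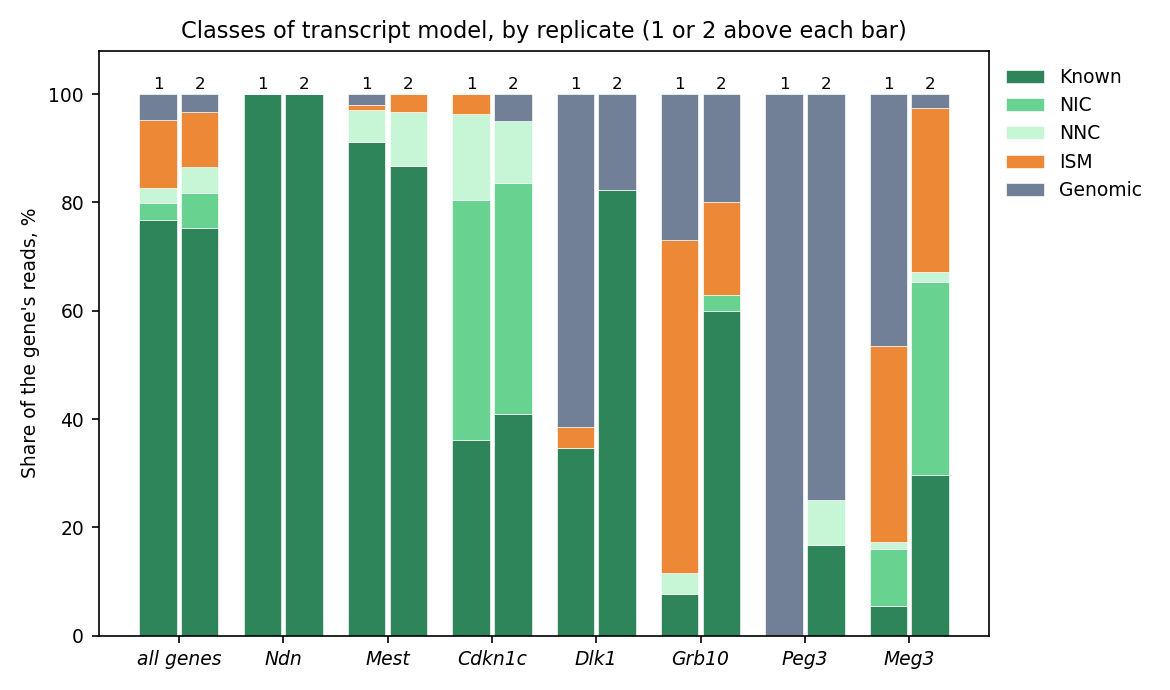
Share of reads by class of transcript model, in %, for all genes and for the 7 tested members, in replicate 1 (left bar) and replicate 2 (right bar). Known, NIC (new combination of known splice sites) and NNC (with a new splice site) are counted as full chains, although some of these models start downstream of the first exon. Classes are as deposited, and some Cdkn1c models with an unannotated splice site are classed NIC. An example is the third acceptor with the outer donor, with 32 and 3 reads. ISM matches part of a known chain, and Genomic is unspliced or unmatched sequence. Meg3 and Grb10 have few known reads in replicate 1 (5.56% and 7.69%), whereas Ndn, with 1 annotated single-exon transcript, has only known reads.

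A list of 40 other imprinted genes was read alongside, of which 31 had a read and 21 had enough reads for the test. 7 were higher in replicate 2, 5 were lower and 9 were not called, against 64.4% called over all genes. Their median log2 ratio was 0.14, and it turned to -0.32 with TMM factors, -0.40 with DESeq2 size factors and -0.17 with the length trend removed. Over all genes, 61.3% were called with TMM factors, 60.2% with DESeq2 size factors and 41.8% with the trend removed. Of all genes called, 44.2%, 41.6% and 48.3% in turn were higher, against 56.8% under total scaling. In the list, the counts were 3 higher and 7 lower with TMM factors, 2 and 7 with DESeq2 size factors, and 5 and 6 of 19 genes with the trend removed. Under total scaling, of those higher, Trappc9 had 44 and 62 reads, Kcnk9 51 and 61, Nap1l5 46 and 53, Ube3a, the ubiquitin ligase lost in Angelman syndrome, 120 and 107 (log2 ratio 0.47, but 0.0059 with TMM factors and -0.64 with the length trend removed), Igf2r 13 and 23, Kcnq1 2 and 19 and Asb4 1 and 9. Of those lower, H13, a signal peptide peptidase, had 785 and 149 reads, Snrpn 122 and 6, Inpp5f 77 and 9, Rasgrf1 52 and 12 and Commd1 42 and 3. Those not called were Impact with 83 and 59 reads, Sgce with 52 and 26, Nnat with 32 and 13, Peg13 with 11 and 8, Airn with 10 and 5, Copg2 with 7 and 8, Mcts2 with 9 and 2, Peg10 with 4 and 7 and Kcnq1ot1 with 7 and 3. Copg2 lies on the strand opposite Mest. Ndn and Snrpn, which share the Prader-Willi region of chromosome 7, were both lower in replicate 2 under total scaling, TMM, DESeq2 size factors and the removal of the length trend. Over all genes, 27.9% were called lower under total scaling. Ube3a of the same region went the other way under total scaling and was not called with TMM or DESeq2 size factors. With the length trend removed Ube3a was called lower. The other listed genes of that region had fewer than 10 reads summed.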

How the data were processed

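Whole read counts per transcript model and model lengths in bases were deposited by the authors for 2 libraries. Per the text deposited with the libraries, models were counted on mm10 with GENCODE M21; the source column of the deposited annotation names TALON, while its version and the aligner were not stated there. Reads were summed per gene over all models and scaled to the library's total (CPM). Genes with at least 10 reads summed were tested between the libraries with two-sided Fisher's exact tests, Benjamini-Hochberg adjusted at 0.05, because 1 group leaves no contrast for a count model; log2 ratios used a pseudocount of 1 CPM. Transcript use and the share of reads in known models were tested the same way, with at least 20 reads in each library. Unannotated models were matched by intron chain. Intervals are exact and cover counting error only, at a 95% level, since no molecular identifiers are given. Length percentiles used the 500 nearest genes. Alternatives were TMM factors (edgeR 4.0.16), DESeq2 1.42.0 size factors, removal of the length trend, other minimum reads, other model classes and a pseudocount of 5 CPM. Python 3.11.15, scipy 1.17.1 and R 4.3.3 were used. The tests were also run on simulated counts with known changes and counting error only. Those counts held no length trend, so they do not show how the tests behave between these 2 libraries. All 10 members, other imprinted genes with at least 10 reads, the highest gene of each marker list, and transcripts with at least 10 reads or most used in their gene were named; others are counted. Members and lists were chosen with earlier results of these data known. Sequences came from RefSeq (GRCm38.p6) and GENCODE M21.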

Additional observations from a re-analysis of the deposited data

How the results depend on the processing

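Under other scalings, minimum reads, model classes and a pseudocount of 5 CPM, between 4 and 6 members were called between the libraries. Over all genes, the share called ran from 37.5% with at least 1 read summed to 75.6% with known models only. It was 61.3% with TMM factors, 60.2% with DESeq2 size factors and 73.8% with at least 20 reads summed. Meg3 (higher) and Ndn, Cdkn1c and Mest (lower) were called under all of these settings. Grb10 lost its call with TMM factors, with DESeq2 size factors and with the length trend removed, where its log2 ratio turned to -0.017, also with Ndn at its RefSeq length. Peg3 lost its call under the same settings. It had too few reads to be tested with at least 20 reads summed, with known models only or with genomic models left out. The Dlk1 log2 ratio, not called, turned to -0.43 with TMM factors and -0.51 with DESeq2 size factors. The summed level of 1172 CPM was 1034 to 1309 CPM in single libraries, 1209 CPM with TMM effective sizes and 672 CPM with known models only, since that leaves out other models. The difference in the share of Cdkn1c reads in known models, 4.85 percentage points, turned to -1.18 when new splice chains were counted as known; neither was called. With at least 10 reads in each library the share of known-model reads was called for 3 of 6 tested members, against 2 of 5 in the main test. Dlk1 was added (adjusted p = 0.0254, Fisher's exact test), and the share called over all genes was not counted at that minimum. No member was called for transcript use under any setting. The share called higher of all called genes was 56.8%, and 44.2% with TMM factors, 41.6% with DESeq2 size factors and 48.3% with the length trend removed. Of all genes, 6363 of 9879 were called in the main test and 3831 of 9166 with the trend removed, where genes without a known model drop out and an exact binomial test takes the place of Fisher's. No paired analysis was possible because the series holds 1 group of 2 libraries. With 2 libraries, the spread between animals was not measured; members under 10 reads summed were not tested.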
